A study of Mus musculus with 12 samples.

Results

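Temozolomide (TMZ) given alone was compared with Control in mouse GL261 glioblastoma, across every gene that the array could name. The comparison used 6 of the 12 arrays of the series, the 3 titled TMZ and the 3 titled Control. Genes were taken from the probe sets that carry exactly 1 gene symbol, with the probe set of highest mean over the 12 arrays kept for each gene, which gave 22180 genes. Values are log2 signals, so a difference of 1 is a doubling.

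GL261 is a glioma cell line of C57BL/6 mice that forms tumours in animals with an intact immune system. It was implanted in the brain of male C57BL/6 mice 8 weeks old, and total RNA was taken from the tumour mass on day 16. All 12 arrays share this line, host and day. TMZ animals received 30 mg/kg of the drug into the peritoneum, and for Control the labels name no agent or vehicle. The 6 other arrays are 3 Anti-PD-1 (10 mg/kg of antibody into a vein, 2 injections per week) and 3 Combination (both agents). The labels give neither the days of TMZ dosing nor the time from the last dose to tissue collection, and they do not say whether each array is a separate animal. The p values below therefore measure the spread between these arrays, which may be technical. Transplanted GL261 is 1 cell line, so the arrays sample 1 tumour genotype.

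TMZ is an alkylating prodrug whose most toxic lesion is a methyl group on the O6 position of guanine. The protein MGMT removes that group, and where it stays, mismatch repair acts on the mispaired base at replication and can lead to strand breaks, checkpoint signalling through CHK1 and p53, and arrest in G2. In glioma it is the standard alkylating drug, and its effect in animals with an immune system also involves the immune cells of the tumour.

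The arrays of each group were not alike, and that bears on all results. On the first principal component of the 22180 genes Control replicates 1 and 2 lay at -20.1 and -26.4, Control replicate 3 at -1.28, and the TMZ replicates at -4.10, 10.4 and 7.92. The SD of the log2 difference between 2 arrays was 0.197 for Control replicates 1 and 2, against 0.217 and 0.237 for Control replicate 3 with them and 0.196 and 0.190 for Control replicate 3 with TMZ replicates 1 and 3. The third component set TMZ replicate 2, at 20.9, against the others. All 9 neuron, 9 oligodendrocyte and 10 astrocyte markers measured had a mean signal above that of the median gene on these tumour samples, as were 8 of 10 glioma and progenitor markers; 0 of 8 T cell markers were. Results are given with all arrays, and some are also given without the arrays that stand apart. A value given with all arrays only can depend on them too.

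Of the 22180 genes, limma called 22 between TMZ and Control (0.0992% of genes, Benjamini-Hochberg adjusted p under 0.05). TMZ was lower in 18 of them (0.0812%) and higher in 4 (0.018%). The 18 were the cell cycle genes Ccna2, Ccnd1, Dtl, Ect2, Hmmr, Spc25 and Gtse1, the genes Moxd1, Ccn1, Col11a1, Car6, Neb, Depdc7 and H2-DMb1, and 3830403N18Rik, AI662270, Gm15114 and 1700011M02Rik. The 4 were Atp13a5, Inca1 and the microRNA genes Mir99a and Mir382. In each of the 22, every Anti-PD-1 and Combination array also lay on the TMZ side of the Control arrays. These differences thus set Control apart from every treated group, not from TMZ alone. Large differences were mostly downward: 44 genes were at least 2-fold lower in TMZ and 3 at least 2-fold higher, although 11554 genes (52.1%) were higher at all. Which arrays entered the fit set this count. Leaving out Control replicate 3 gave 363 genes, with all 22 among them, and leaving out Control replicate 1 gave 1. The count was 0 without Control replicate 2 (1681 genes at an unadjusted p under 0.05) and 0 without TMZ replicate 2 (1873 genes), and 4 and 2 without TMZ replicates 1 and 3. Fitting only the 6 arrays compared called 0 genes (2089 at an unadjusted p under 0.05), and adding the neuron marker level as a covariate called 2. Leaving out an Anti-PD-1 or Combination array, which enter only through the shared variance, gave 1 to 7.

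**Figure D1:**
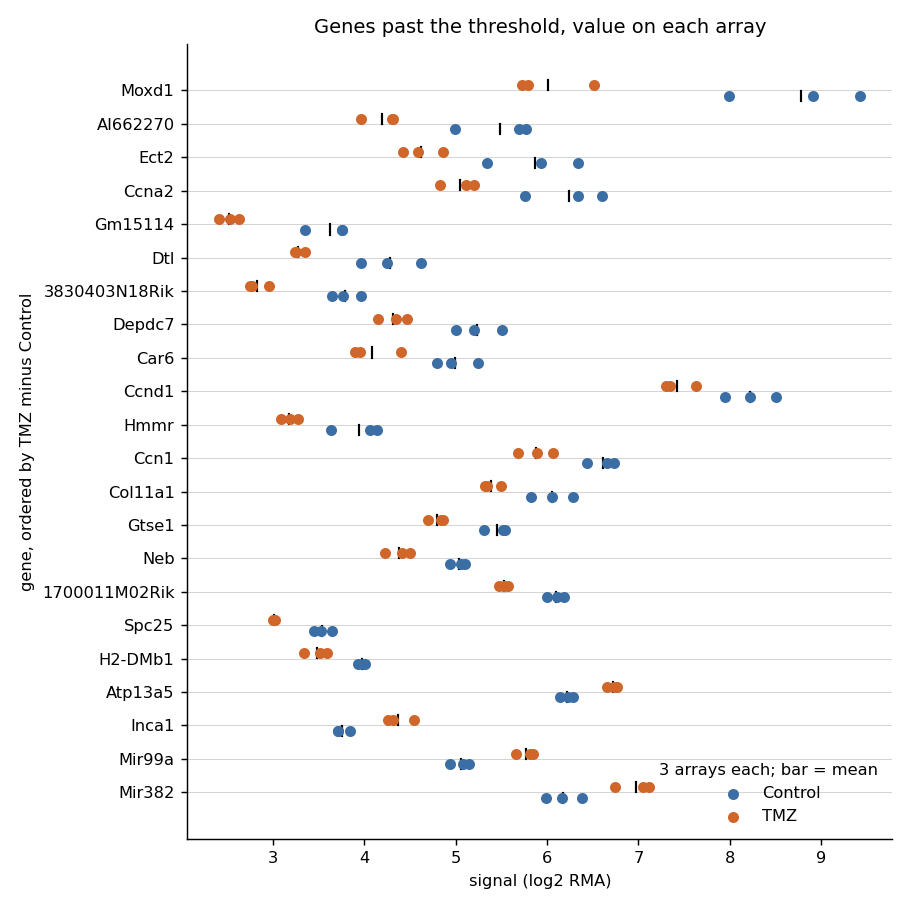
Log2 signal on each of the 3 Control and 3 TMZ arrays for the 22 genes past the threshold, ordered by TMZ minus Control; points are arrays and bars are group means. In each gene the TMZ arrays lie on 1 side of the Control arrays, and Moxd1 shows the widest gap.

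The cyclins, which switch the cyclin-dependent kinases on, were lower in TMZ throughout. Ccnd1 encodes cyclin D1, which starts G1. Its signal was 8.22, 8.51 and 7.95 on Control replicates 1 to 3 and 7.63, 7.30 and 7.34 on TMZ replicates 1 to 3. The lowest Control value, in replicate 3, lay above every TMZ value, and Ccnd1 fell 1.74-fold (log2 difference -0.80 ± 0.13 SE, adjusted p = 0.0476 in limma). Ccna2 encodes cyclin A2, which drives S phase and entry to mitosis. It was at 6.34, 6.61 and 5.76 in Control and 5.12, 4.83 and 5.20 in TMZ. Here too Control replicate 3 was the lowest Control and no array overlapped, and Ccna2 fell 2.28-fold (-1.19 ± 0.17, adjusted p = 0.0402). Of the 11 cyclin and CDK genes measured all 11 were lower, 2 passed, and in 6 (54.5%) the 3 TMZ arrays lay below the 3 Control arrays, against 6.81% of all genes. Cdk1, the kinase of mitotic entry, was at 5.94, 5.76 and 5.20 in Control and 4.78, 4.62 and 4.50 in TMZ, a difference of -1.0 ± 0.19 that missed the threshold (adjusted p = 0.107). Ccnb2, a cyclin B gene, was at -0.52 ± 0.14.

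Of the genes of S phase, Dtl passed. Its product is the substrate receptor of a ubiquitin ligase that clears licensing factors and p21 from replicating or damaged DNA. Dtl was at 4.25, 4.62 and 3.97 in Control and 3.24, 3.25 and 3.35 in TMZ (-1.0 ± 0.14, adjusted p = 0.0402). The TMZ arrays lay close together, SD 0.061, and well below the lowest Control array. In the list of E2F factors and S phase genes 33 of 35 were lower, with a median of -0.25. Of the 35, 20 (57.1%) were lower without overlap, against 6.81% of all genes. Mcm2, a subunit of the replicative helicase, was at -0.64, Uhrf1, which carries methylation marks to new DNA, at -0.61, and Pcna, the polymerase clamp, at -0.29; none of these passed. E2f1 itself was at -0.03 ± 0.10. Of the 10 genes of nucleotide synthesis 9 were lower. Of the 10, 5 were lower without overlap, against 6.81% of all genes. Rrm1, a subunit of ribonucleotide reductase, was at -0.36 and Tk1, thymidine kinase, at -0.23.

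The genes of mitosis were lower nearly throughout. In 4 lists of mitotic kinases, kinetochore, spindle and cytokinesis genes 67 of 69 were lower and 3 passed. Of the 69, 47 (68.1%) were lower without overlap, against 6.81% of all genes. Their median was -0.49, where the median of all genes was 0.01. Hmmr encodes a spindle-associated protein also known as a hyaluronan receptor. It was at 4.14, 4.06 and 3.63 in Control and 3.27, 3.08 and 3.18 in TMZ (-0.76 ± 0.11, adjusted p = 0.041). Spc25 encodes a subunit of the NDC80 complex that holds microtubules at the kinetochore. It was at 3.64, 3.45 and 3.53 in Control and 3.001, 3.015 and 3.023 in TMZ (-0.53 ± 0.07, adjusted p = 0.0402). For Spc25 Control replicate 3 lay between the other Control arrays, unlike for Hmmr, where it was the lowest. Ect2 encodes the exchange factor that starts cytokinesis. It was at 5.93, 6.33 and 5.34 in Control and 4.86, 4.42 and 4.59 in TMZ, 2.37-fold lower (-1.25 ± 0.19, adjusted p = 0.0461). Gtse1, outside these lists, encodes a microtubule protein that also binds p53 in G2, and it was at 5.54, 5.52 and 5.31 in Control and 4.84, 4.87 and 4.69 in TMZ (-0.66 ± 0.10, adjusted p = 0.0461).

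Many promoters of mitotic genes carry the cell cycle element TTTGAA, to which the DREAM and MuvB complexes bind, and CCAAT boxes, to which NF-Y binds. The promoters of Hmmr and Spc25 are shown because both genes passed and carry these letters. They span 250 bases before to 50 after the start site (RefSeq, GRCm38.p6), with TTTGAA and CCAAT, read on either strand, in capitals (ATTGG is CCAAT on the other strand). Hmmr lies at chr11:40733388-40733687 and Spc25 at chr2:69206164-69206463, both on the minus strand.
Hmmr: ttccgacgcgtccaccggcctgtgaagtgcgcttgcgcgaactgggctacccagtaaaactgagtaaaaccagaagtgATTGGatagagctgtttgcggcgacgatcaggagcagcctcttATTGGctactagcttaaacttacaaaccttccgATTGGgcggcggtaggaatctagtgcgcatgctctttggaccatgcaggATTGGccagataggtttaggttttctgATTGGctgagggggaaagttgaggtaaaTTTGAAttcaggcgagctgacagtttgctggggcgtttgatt
Spc25: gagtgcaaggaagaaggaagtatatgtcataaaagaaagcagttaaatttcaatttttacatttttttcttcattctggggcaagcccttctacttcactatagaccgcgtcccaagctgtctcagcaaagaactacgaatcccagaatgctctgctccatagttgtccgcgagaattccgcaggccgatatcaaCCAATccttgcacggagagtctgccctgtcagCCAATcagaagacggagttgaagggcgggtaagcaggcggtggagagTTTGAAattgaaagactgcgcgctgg
Hmmr holds TTTGAA 9 bases into the transcript and 5 CCAAT boxes, and Spc25 holds TTTGAA at base 25 and 2 CCAAT boxes. The first listed start of Ect2 has TTTGAA at base 40 and at -114. Over the 4 mitosis lists 41 of the 59 genes in the promoter table (69.5%) held TTTGAA, as did 16 of 19 kinesin and spindle genes (84.2%), against 20.2% of the 27025 genes in the table. CCAAT stood in 40 of 59 (67.8%) and in 11 of the 13 promoters of genes that fell (84.6%), against 41.1%. TTTGAA stood in only 3 of those 13 (23.1%), which are Hmmr, Ect2 and Spc25. A match names letters in this window, not a bound site, and the lists were chosen by function.

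Among the genes of mitosis that missed the threshold, several were as far apart in the means as genes that passed. Kif20a, a kinesin of cytokinesis, was at 5.18, 5.36 and 4.79 in Control and 4.30, 3.89 and 4.12 in TMZ (-1.01 ± 0.17, adjusted p = 0.0566 in limma). Top2a, the topoisomerase that disentangles chromosomes, was at 6.56, 6.78 and 5.63 in Control and 5.03, 4.29 and 4.87 in TMZ (-1.59 ± 0.27, adjusted p = 0.071). In both genes Control replicate 3 lay between the other Control arrays and the TMZ arrays, and TMZ replicate 2 was the lowest. Aurka, the Aurora A kinase, was at -0.60 ± 0.10 (adjusted p = 0.0668), Kif23 at -0.48 ± 0.08, the proliferation marker Mki67 at -1.06 ± 0.20, and Foxm1, the factor that drives G2 and M genes, at -0.68 ± 0.16. The histone gene H2ac10 was at -1.18 ± 0.20 and Cip2a, an inhibitor of the phosphatase PP2A, at -0.73 ± 0.13.

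Over 7 cell cycle lists, 120 of 125 genes were lower in TMZ, 6 passed and 78 (62.4%) were lower without overlap, against 6.81% of all genes. Control replicate 3 was the lowest Control array in 105 of the 125 and lay between the other Control arrays and all TMZ arrays in 69. Without it 106 did not overlap, where all genes without overlap and lower numbered 3381. The mean signal of the 21 kinesin and spindle genes was 4.89, 5.12 and 4.62 on Control replicates 1 to 3 and 4.40, 4.25 and 4.31 on TMZ replicates 1 to 3. All 3 TMZ arrays thus lay below Control replicate 3. Tumour RNA is a mixture, so fewer cells of a type and less RNA per cell cannot be told apart here, for these and all other genes. Beside these genes neuron markers had a median difference of 0.04 and glioma and progenitor markers one of -0.19, with Vim, an intermediate filament of glioma cells, at -1.01 ± 0.23 and Met, a growth factor receptor, at -0.52 ± 0.13; their part in the cell cycle differences was not tested.

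**Figure D2:**
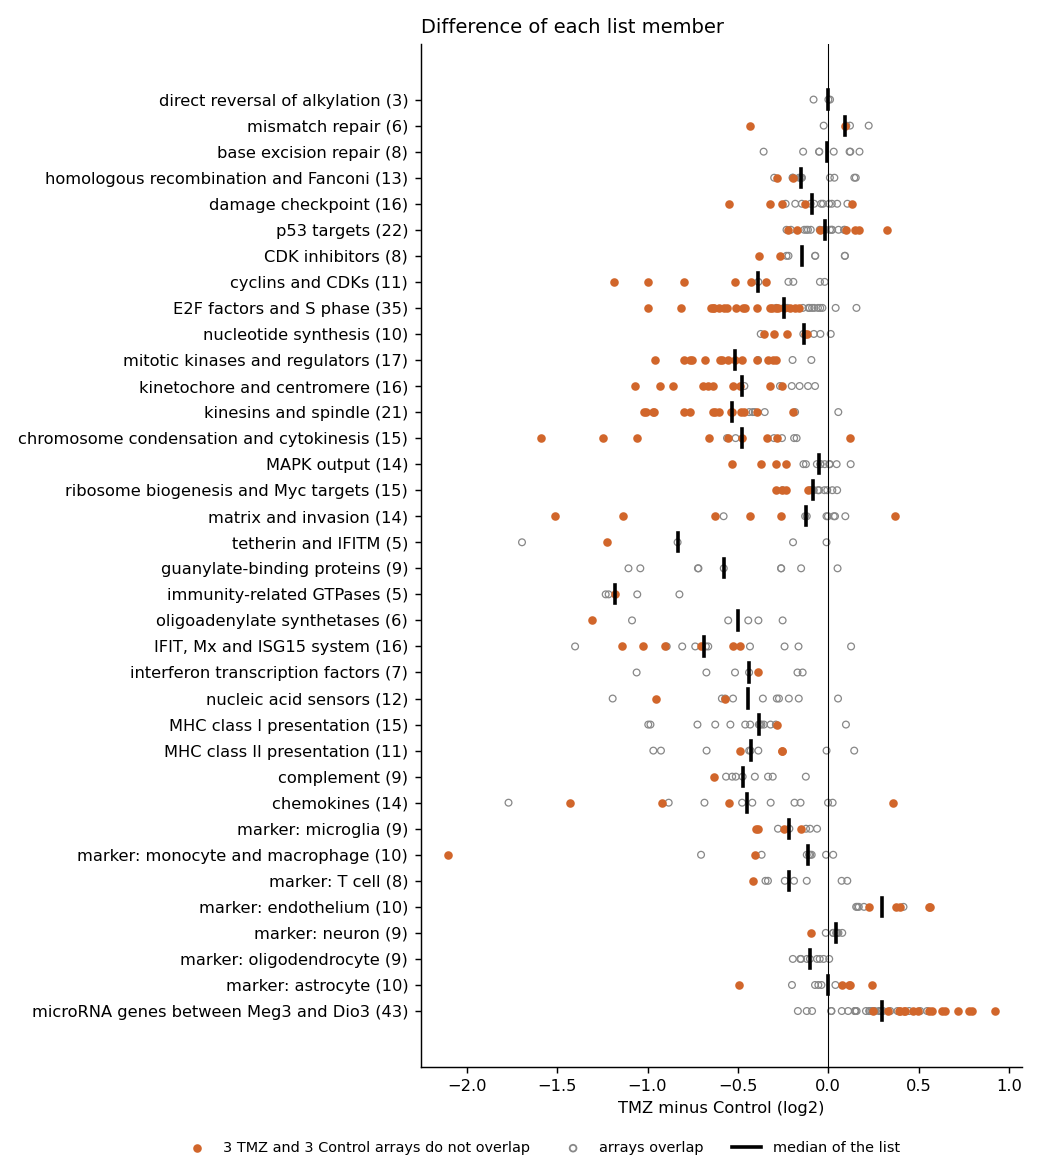
TMZ minus Control (log2) of each member of 36 gene lists, with the number of genes measured in brackets; filled points are genes whose TMZ and Control arrays do not overlap, open points those that overlap, and bars are medians. The 4 lists of mitosis lie to the left with mostly filled points, the interferon lists lie as far left with mostly open points, and the repair lists sit near 0.

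The gene that removes the TMZ lesion and those of mismatch repair showed no common direction. Mgmt was at 4.92, 4.98 and 4.91 in Control and 4.99, 4.71 and 4.86 in TMZ, so the groups overlapped (-0.08 ± 0.10, adjusted p = 0.797). Msh6, a subunit of the sensor that binds the mispair, was at 5.49, 5.50 and 5.37 against 5.52, 5.34 and 5.42 (-0.03 ± 0.08). Of the 6 mismatch repair genes 4 were higher and 2 lower; Pms2 was at 0.22 ± 0.09 and Exo1, the exonuclease of the pathway, at -0.43 ± 0.13, and neither passed. Base excision repair was split 4 to 4, with the uracil glycosylase Ung at -0.36 ± 0.12. Of 13 genes of homologous recombination and the Fanconi pathway 9 were lower, with Bard1 at -0.28 and Fancd2 at -0.20. Over the 5 lists of repair and checkpoint 27 of 46 genes were lower, 7 (15.2%) without overlap against 6.81% of all genes, limma called 0 (9 at an unadjusted p under 0.05), and the median was -0.05.

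Of the 16 damage checkpoint genes 11 were lower and 5 higher, with a median of -0.09. Without overlap 4 of the 16 were lower and 1 was higher, against 6.81% and 8.19% of all genes. The mean signal of the 16 was 6.02 to 6.12 on the Control arrays and 5.95 to 5.99 on the TMZ arrays, which did not overlap. The checkpoint kinase gene Chek1 was at 4.67, 4.75 and 4.58 in Control and 4.64, 4.79 and 4.49 in TMZ (-0.03 ± 0.12). The lower ones included Cdc25c (-0.55) and Cdc25a (-0.25), phosphatases that switch CDKs on, and Hus1 (-0.32), part of a DNA clamp. Of 22 p53 targets 12 were lower and 10 higher, with a median of -0.02. Without overlap 3 were lower (13.6%) and 4 higher (18.2%), against 6.81% and 8.19% of all genes. Cdkn1a, which encodes p21, the main CDK inhibitor under p53, was at 8.04, 8.27 and 7.70 in Control and 7.70, 7.90 and 7.72 in TMZ (-0.23 ± 0.12, adjusted p = 0.505). Mdm2, the ubiquitin ligase of p53, was at -0.05 ± 0.06 and Ccng1 at 0.02 ± 0.07; Perp, a membrane protein, was at 0.32 ± 0.12 and Zmat3, an RNA-binding protein, at 0.15 ± 0.06. On these arrays, then, the 22 p53 targets differed by -0.23 to 0.32, and limma called 0 of them.

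Inca1, an inhibitor of CDK2 with cyclin A, was the cell cycle gene that rose. It was at 3.71, 3.71 and 3.85 in Control and 4.26, 4.31 and 4.55 in TMZ (0.61 ± 0.09, adjusted p = 0.0402). All TMZ arrays lay above all Control arrays, and Anti-PD-1 and Combination arrays, at 3.91 to 4.15, lay between. Of the 8 CDK inhibitors of the list 6 were lower, with Cdkn2a, which encodes p16 and ARF, at 5.96, 5.99 and 5.78 in Control and 5.69, 5.42 and 5.47 in TMZ (-0.38 ± 0.12, adjusted p = 0.264).

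Outside the cell cycle, Moxd1 had the largest difference of all genes. It encodes a monooxygenase of the dopamine beta-hydroxylase family and stood at 8.91, 9.43 and 7.99 in Control and 6.51, 5.79 and 5.73 in TMZ (-2.77 ± 0.34, 6.80-fold, adjusted p = 0.0277). The lowest Control array, replicate 3, lay far above the highest TMZ array, replicate 1. Col11a1, a fibrillar collagen chain, was at 6.05, 6.28 and 5.83 in Control and 5.50, 5.32 and 5.35 in TMZ (-0.67 ± 0.10, adjusted p = 0.0461). Ccn1, a matricellular target of YAP, was at 6.66, 6.74 and 6.44 against 6.07, 5.89 and 5.69 (-0.73 ± 0.11, adjusted p = 0.0461). Of the 12 YAP and TEAD targets measured, Ccn1 among them, 7 were lower and 5 higher, with a median of -0.03. Car6, a secreted carbonic anhydrase, was at 4.95, 5.25 and 4.79 against 4.40, 3.89 and 3.95 (-0.92 ± 0.14, adjusted p = 0.041).

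Neb, the giant ruler protein of muscle thin filaments, was at 5.05, 5.10 and 4.94 in Control and 4.50, 4.23 and 4.41 in TMZ (-0.65 ± 0.08, adjusted p = 0.0297). Depdc7, a DEP domain gene, was at 5.21, 5.51 and 5.0 against 4.46, 4.15 and 4.34 (-0.92 ± 0.13, adjusted p = 0.0402). In both, as in every other gene called, no TMZ array reached the Control range. Atp13a5, a P5-type ATPase, was at 6.15, 6.29 and 6.23 in Control and 6.74, 6.77 and 6.65 in TMZ (0.50 ± 0.06, adjusted p = 0.0277). Its arrays were close within both groups, and Control replicate 3 did not lie toward TMZ.

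Of the genes known by a clone or model number, 3830403N18Rik on the X chromosome had the smallest p of the comparison. It was at 3.96, 3.76 and 3.65 in Control and 2.96, 2.74 and 2.77 in TMZ (-0.96 ± 0.09, adjusted p = 0.00721), and it passed in 10 of the 12 fits that left out 1 array, more than Moxd1 (5) or any other gene called. Gm15114, also on the X chromosome, was at -1.10 ± 0.17, and the long noncoding RNA genes AI662270 and 1700011M02Rik were at -1.29 ± 0.19 and -0.57 ± 0.09. The signals of 3830403N18Rik and Gm15114 were in the lowest 10.5% and 7.14% of genes.

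Just short of the threshold lay further genes that separated the groups. Stx11, a syntaxin of granule release in cytotoxic and myeloid cells, was at 4.67, 4.72 and 4.64 in Control and 4.28, 4.22 and 4.35 in TMZ (-0.39 ± 0.06, adjusted p = 0.0526), the smallest p above it. Piezo2, a mechanically gated channel, was at 5.49, 5.90 and 5.05 against 4.52, 4.56 and 4.62 (-0.91 ± 0.16, adjusted p = 0.08), and Trim14, a gene of antiviral signalling, was at -0.57 ± 0.10. Of those higher in TMZ, Npr2, the receptor of C-type natriuretic peptide, was at 6.90, 6.85 and 6.82 against 7.16, 7.22 and 7.13 (0.32 ± 0.06, adjusted p = 0.107). Slc13a4, a sulphate transporter, was at 0.37 ± 0.07, Rccd1 at 0.34 ± 0.06 and Mir23b at 0.48 ± 0.09. All of these differences were below 2-fold.

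Matrix and growth factor genes were lower in part. Of 14 matrix and invasion genes 10 were lower, and limma called 0. Without overlap 5 were lower (35.7%) and 1 was higher (7.1%), against 6.81% and 8.19% of all genes. Lgals1, galectin-1, was at 8.72, 8.80 and 7.55 in Control and 7.13, 6.72 and 6.68 in TMZ (-1.51 ± 0.26, adjusted p = 0.0742). Control replicate 3 lay nearer to TMZ replicate 1 than to either other Control array. Timp1, a protease inhibitor, was at -1.14 ± 0.30, the galectin Lgals3 at -0.63 ± 0.15 and tenascin C, Tnc, at -0.44 ± 0.11. Of the genes switched on by MAPK signalling 10 of 14 were lower with a median of -0.05, led by Myc at 6.95, 7.03 and 6.64 in Control and 6.43, 6.27 and 6.31 in TMZ (-0.53 ± 0.11, adjusted p = 0.126). Dusp6, a feedback phosphatase of ERK, was at -0.37 ± 0.10. Of ribosome biogenesis genes, which Myc drives, 13 of 15 were lower by a median of -0.09, with the nucleolar protein Npm1 at -0.29 ± 0.08. Lists of circadian clock, glucocorticoid and hypoxia genes had medians between -0.04 and 0.04.

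Interferon-stimulated genes were lower by as much as mitotic genes, but in most of them the arrays overlapped. These genes are switched on by STAT and IRF factors after interferon binds its receptor, and in tumours they report interferon from immune cells and from the tumour cells themselves. Over 7 lists 57 of 60 were lower with a median of -0.57; limma called 0 (38 at an unadjusted p under 0.05), and 12 (20.0%) did not overlap, against 6.81% of all genes. Control replicate 3 was the lowest Control array in 57 of the 60 and TMZ replicate 1 the highest TMZ array in 53, and without Control replicate 3, 51 did not overlap, as did 3381 of all 22180 genes. The mean signal of the 5 immunity-related GTPases was 7.60, 8.18 and 6.42 on Control replicates 1 to 3 and 6.90, 5.50 and 6.49 on TMZ replicates 1 to 3. Thus TMZ replicates 1 and 3 lay above Control replicate 3.

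The interferon genes fell into those that overlapped and those that did not. Irgm1, a GTPase that acts on vacuoles holding pathogens, was at 7.10, 7.32 and 5.95 in Control and 5.89, 5.23 and 5.72 in TMZ (-1.18 ± 0.32, adjusted p = 0.205). Igtp, of the same family, was at 8.34, 8.90 and 7.08 against 7.71, 5.76 and 7.16 (-1.23 ± 0.62), and Gbp3, a guanylate-binding protein, at 6.87, 7.08 and 6.11 against 6.15, 5.22 and 5.56 (-1.04 ± 0.30). Irgm1 separated narrowly, while in Igtp and Gbp3 a TMZ array passed above Control replicate 3. Mx1, an antiviral dynamin-like GTPase, was at 3.53, 3.71 and 3.43 against 3.20, 3.02 and 2.99 (-0.49 ± 0.09, adjusted p = 0.08), the interferon gene nearest to the threshold. Ifitm3, which blocks virus entry, was at 9.66, 10.00 and 8.68 against 8.42, 8.21 and 8.04 (-1.22 ± 0.30) and did not overlap. Bst2, tetherin, was at 8.05, 8.75 and 6.65 against 6.77, 5.53 and 6.07 and overlapped (-1.69 ± 0.45, adjusted p = 0.203). The factors Irf7 (-1.06 ± 0.32) and Irf1 (-0.67 ± 0.20) and the sensors Ifih1 (-0.95 ± 0.25) and Zbp1 (-1.19 ± 0.33) were lower without passing. The genes for interferons and their receptors had a median of -0.08, with Ifng at -0.14 ± 0.08.

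The promoters of Irgm1 and Igtp are shown because these genes were among those furthest below Control and both carry the interferon element. Capitals mark GAAANNGAA on either strand, where N is any base; the 2 matches of Irgm1 overlap and are drawn as 1 run. Irgm1 lies at chr11:48871371-48871670 on the minus strand and Igtp at chr11:58199306-58199605 on the plus strand (RefSeq, GRCm38.p6).
Irgm1: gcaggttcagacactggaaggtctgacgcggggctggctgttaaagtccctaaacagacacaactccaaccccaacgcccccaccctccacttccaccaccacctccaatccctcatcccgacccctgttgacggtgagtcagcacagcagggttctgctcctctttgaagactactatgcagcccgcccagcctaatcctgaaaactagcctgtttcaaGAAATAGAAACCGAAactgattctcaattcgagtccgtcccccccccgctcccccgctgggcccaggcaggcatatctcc
Igtp: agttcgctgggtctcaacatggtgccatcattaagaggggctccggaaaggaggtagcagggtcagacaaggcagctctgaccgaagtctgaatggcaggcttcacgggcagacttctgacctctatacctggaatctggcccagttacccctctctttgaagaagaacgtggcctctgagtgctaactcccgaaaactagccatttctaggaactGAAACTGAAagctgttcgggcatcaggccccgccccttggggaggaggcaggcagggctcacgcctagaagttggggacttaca
The matches begin at -30 and -24 in Irgm1 and at -34 in Igtp. This element was in 22 of the 41 interferon-stimulated genes with a promoter in the table (53.7%), in 4 of 4 guanylate-binding protein genes and in 3 of 3 immunity-related GTPase genes, against 9.8% of all genes in the table. In the 4 mitosis lists it was in 7 of 59 (11.9%).

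Of the genes of antigen presentation H2-DMb1 passed. It encodes a chain of the chaperone that loads peptides on MHC class II, and it was at 4.01, 3.93 and 3.98 in Control and 3.34, 3.52 and 3.59 in TMZ (-0.49 ± 0.07, adjusted p = 0.041). Its 3 Control arrays lay within a narrow range, at a signal in the lowest 18.2% of genes, and Control replicate 3 did not lie toward TMZ. Its partner H2-DMa, by contrast, overlapped, at 7.40, 7.46 and 6.86 against 7.04, 6.63 and 6.90 (-0.39 ± 0.15). Ciita, the master factor of class II genes, was at -0.26 ± 0.07 and H2-Ob, which inhibits the chaperone, at -0.26 ± 0.07, both without overlap and neither past the threshold. In class I, Psmb8, an immunoproteasome subunit, was at -1.0 ± 0.27, Tap1, the peptide transporter, at -0.98 ± 0.27 and H2-K1 at -0.63 ± 0.38. Over both classes 24 of 26 were lower, and 4 (15.4%) did not overlap, against 6.81% of all genes.

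Microglia markers were lower and those of vessels higher. All 9 microglia markers were lower by a median of -0.22, or -0.12 without TMZ replicate 2, and 4 did not overlap: Fcrls (-0.40), Olfml3 (-0.39), Siglech (-0.24) and Tmem119 (-0.15), 44.4% of the list against 6.81% of all genes. P2ry12, the receptor that marks resting microglia, was at 7.67, 7.65 and 7.53 in Control and 7.67, 7.32 and 7.49 in TMZ (-0.12 ± 0.09). Of 10 monocyte and macrophage markers 9 were lower and 2 (20.0%) did not overlap, Gpnmb and Plac8 (-0.41 ± 0.10). Their median was -0.11, but -0.07 without TMZ replicate 3, -0.29 and -0.20 without TMZ replicates 1 and 2, and -0.20 and -0.36 without Control replicates 1 and 3. Gpnmb, a glycoprotein of lipid-laden macrophages and the extreme of that list, had the second largest difference of all genes, at 8.54, 9.27 and 7.34 against 7.23, 5.55 and 6.07 (-2.10 ± 0.55, adjusted p = 0.191). Its groups were split by a narrow margin between Control replicate 3 and TMZ replicate 1. Cxcl10, the interferon-induced chemokine of T cells, was at 7.80, 8.72 and 6.13 against 6.83, 5.05 and 5.46 and overlapped (-1.77 ± 0.60, adjusted p = 0.308). Cxcl13, the B cell chemokine, was at 7.56, 7.32 and 6.32 against 5.76, 5.49 and 5.66 without overlap (-1.43 ± 0.27, adjusted p = 0.107). Of 8 T cell markers 6 were lower and 2 higher, and limma called 0. Of the 8, 1 (12.5%) was lower without overlap, against 6.81% of all genes. Cd2 was at -0.42 ± 0.10, Cd3e at -0.35 ± 0.19 and Cd8a at -0.12 ± 0.10. Among checkpoint genes Ctla4 was the one higher, at 3.12, 3.06 and 2.95 against 3.76, 3.18 and 3.37 (0.39 ± 0.15, adjusted p = 0.358).

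All 10 endothelial markers were higher in TMZ, 5 without overlap (8.19% of all genes were higher without overlap), with a median of 0.30 that was 0.14 without TMZ replicate 2. Slco1a4, a transporter of the blood-brain barrier, was at 7.41, 7.19 and 7.39 in Control and 7.48, 8.24 and 7.95 in TMZ (0.56 ± 0.15, adjusted p = 0.215). Flt1, a VEGF receptor, was at 7.21, 7.38 and 7.32 against 7.44, 8.00 and 7.66 (0.40 ± 0.12). Pecam1, an adhesion molecule of endothelium, was at 0.22 ± 0.11. TMZ replicate 2 was the highest array in Slco1a4 and Flt1, and TMZ replicate 1 lay just above the Control arrays. Of pericyte and fibroblast markers 9 of 10 were higher, with Rgs5, a pericyte signal regulator, at 8.60, 8.65 and 8.65 against 8.79, 9.10 and 9.02 (0.34 ± 0.08), and the collagen Col3a1 the exception at -0.55 ± 0.14. Of the 10 astrocyte markers 5 were higher and 5 lower, with a median of 0.0009. Without overlap 4 of the 10 were higher and 1 was lower, against 8.19% and 6.81% of all genes. Gfap, the filament of reactive astrocytes, had the lowest difference of the 10, at 9.83, 9.56 and 9.43 against 9.39, 8.90 and 9.06 (-0.49 ± 0.15, adjusted p = 0.274). Gjb6, an astrocyte gap junction gene, had the highest, at 0.24 ± 0.06. Neuron and oligodendrocyte markers differed by medians of 0.04 and -0.10, with Rbfox3 at 0.05 ± 0.07 and Mbp at 0.01 ± 0.07.

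**Figure D3:**
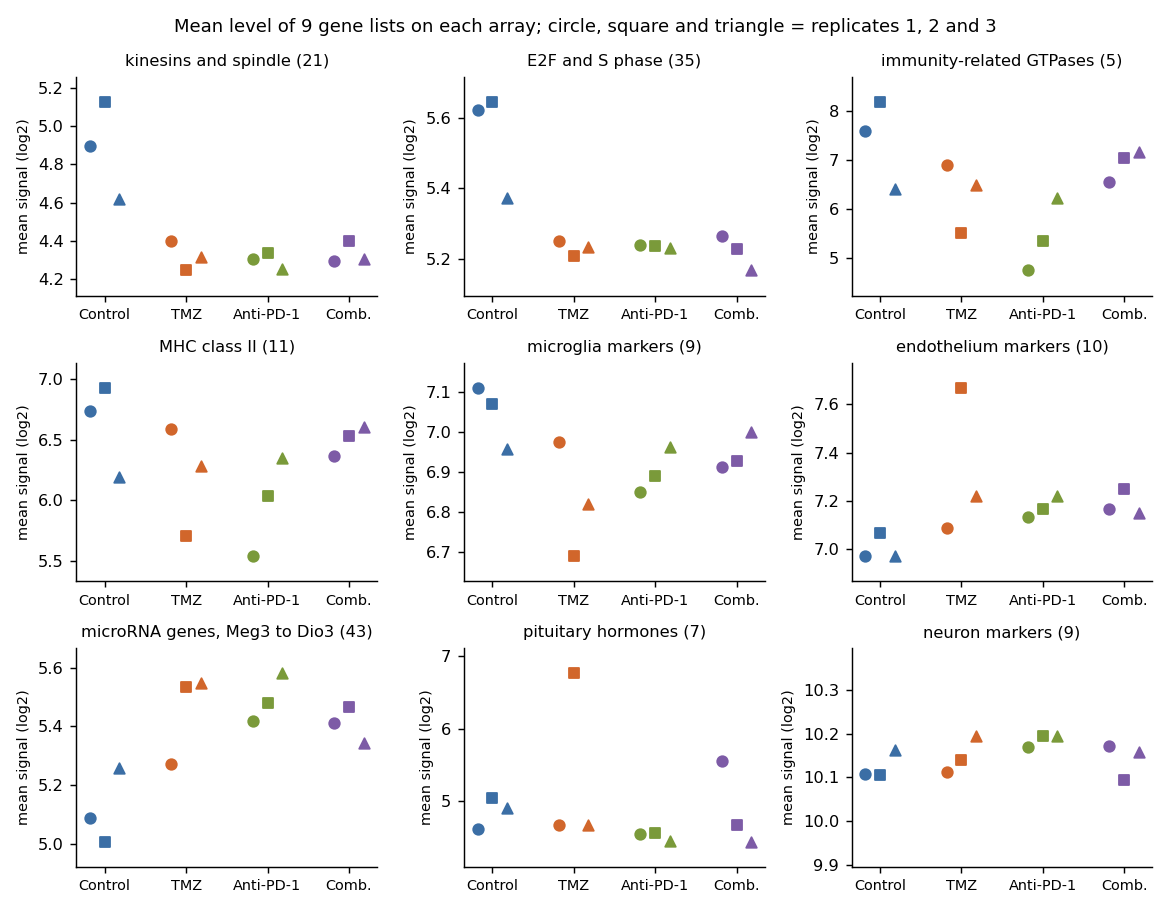
Mean log2 signal of 9 gene lists on each of the 12 arrays; colours are groups, and circles, squares and triangles are replicates 1, 2 and 3. Kinesin genes are at 4.62 to 5.12 in Control and 4.25 to 4.40 in TMZ, immunity-related GTPases overlap between the 2 groups, and the pituitary hormones are at 6.76 on TMZ replicate 2.

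TMZ replicate 2 carried high signals of genes that the other TMZ arrays lacked. On it 9 genes lay over 1 log2 unit above every other array. Pomc, the precursor of ACTH made by the pituitary, was at 4.84, 5.53 and 5.06 in Control and 5.04, 9.30 and 5.17 in TMZ. Prl, prolactin, reached 8.83 on the same array and 4.50 to 4.97 in Control. Gh, growth hormone, was at 5.49, 7.03 and 6.82 in Control and 5.53, 10.57 and 5.83 in TMZ, and Combination replicate 1 reached 8.62. Of the 5 largest upward differences of the comparison 4 were of such genes (Pomc 1.36, Prl 1.31, Apol11b 1.31, Gh 0.86), none past the threshold, and the other was Mir495. Without that array the differences were -0.04 for Pomc, -0.11 for Prl and -0.77 for Gh. Vwf, an endothelial and platelet gene, was at 7.28 and Slc4a1, an anion exchanger of red cells, at 5.97 on that array, each over 1 log2 unit above the rest. The list of pituitary hormones was chosen after these values were seen, and what it has to do with the other differences of that array was not tested.

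A run of microRNA genes was higher in TMZ than in Control, and Anti-PD-1 and Combination were as high. MicroRNAs are cut from hairpin precursors and lower the output of messages that pair with their seed, bases 2 to 8 of the mature strand. The region between Meg3 and Dio3 on chromosome 12 is imprinted, with its noncoding RNAs expressed from the maternal copy, and is active in brain. The array probes each precursor's gene in total RNA, so these signals are not amounts of mature microRNA. The mature strands of Mir382 and Mir99a, which passed, and of cluster members with large differences or a shared seed are shown, beside let-7c-5p, which comes from genes outside the cluster, 1 of them next to Mir99a, with the seed in capitals (RefSeq, GRCm38.p6).
miR-382-5p: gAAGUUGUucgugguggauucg
miR-382-3p: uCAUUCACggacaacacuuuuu
miR-99a-5p: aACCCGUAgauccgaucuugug
let-7c-5p: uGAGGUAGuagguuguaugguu
miR-495-3p: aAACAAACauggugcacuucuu
miR-154-5p: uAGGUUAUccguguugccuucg
miR-379-3p: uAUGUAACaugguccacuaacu
miR-411-3p: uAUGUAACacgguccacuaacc
miR-379-5p: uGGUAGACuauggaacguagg
miR-411-5p: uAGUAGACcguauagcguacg
The strands miR-379-3p and miR-411-3p share the seed AUGUAAC. The 43 cluster genes give 80 mature strands with 73 different seeds, so most members would pair with messages of their own.

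Mir382 was at 5.99, 6.16 and 6.38 in Control and 6.74, 7.06 and 7.12 in TMZ (0.80 ± 0.12, 1.74-fold, adjusted p = 0.0461). Each TMZ array lay above each Control array. For Mir382 the Anti-PD-1 arrays were at 6.86 to 7.09 and the Combination arrays at 6.72 to 6.97. Mir495 was at 3.30, 3.62 and 4.20 against 4.21, 4.90 and 4.79 (0.92 ± 0.22, adjusted p = 0.162), and Mir154 at 4.74, 5.11 and 5.29 against 5.68, 6.11 and 5.69 (0.78 ± 0.18, adjusted p = 0.141). In each of these genes Control replicate 3 was the highest Control array. Mir379 was at 0.63 ± 0.20, its seed partner Mir411 at 0.50 ± 0.17, Mir376b at 0.65 ± 0.13 and Mir329 at 0.56 ± 0.11. Of the 43 genes measured 40 were higher, 1 passed, and 16 (37.2%) did not overlap, against 8.19% of all genes and 47 of 435 microRNA genes elsewhere (10.8%). The median was 0.29, and 0.24 without TMZ replicate 2, where 39 were higher. The mean signal of the 43 was 5.09, 5.01 and 5.26 on Control replicates 1 to 3 and 5.27, 5.53 and 5.55 on TMZ replicates 1 to 3. It was 5.42 to 5.58 on the Anti-PD-1 arrays and 5.34 to 5.47 on the Combination arrays. The Control arrays thus lay below those of every treated group, not of TMZ alone. The region was singled out after its values were seen.

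The other noncoding RNAs of the region went the same way. All 5 small nucleolar RNA genes measured between Meg3 and Dio3 were higher, with a median of 0.33, and limma called 0. Of these 4 (80.0%) did not overlap, against 8.19% of all genes. Elsewhere 56 of 75 such genes were lower, with a median of -0.11, and 1 (1.3%) was higher without overlap. The mean signal of the 5 was 8.58 to 8.69 in Control and 8.81 to 9.045 in TMZ. It was 8.88 to 9.09 in Anti-PD-1 and 8.85 to 8.89 in Combination, so TMZ alone did not stand out. DQ267101 was at 7.20, 6.90 and 7.26 in Control and 7.30, 7.64 and 7.78 in TMZ (0.45 ± 0.13), and AF357355 at 9.63, 9.54 and 9.50 against 9.79, 10.07 and 9.80 (0.33 ± 0.09). Rian, their long host RNA, was at 9.44, 9.22 and 9.60 against 9.62, 9.68 and 9.80 (0.28 ± 0.09, adjusted p = 0.289), and Meg3 was at 0.28 ± 0.12. Neuron markers, beside these, differed by a median of 0.04; their part in the result was not tested.

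**Figure D4:**
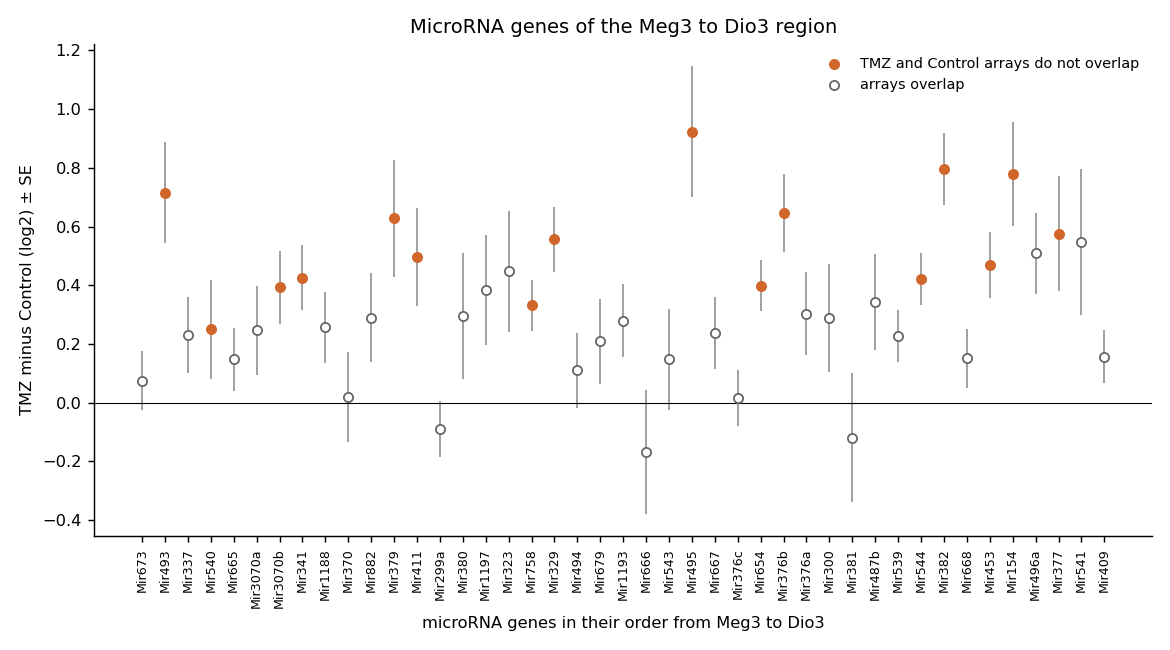
TMZ minus Control (log2, ± SE) of the 43 microRNA genes between Meg3 and Dio3 in their chromosomal order; filled points are genes whose 3 TMZ arrays all lie above the 3 Control arrays. Most points lie above 0 along the whole region, with Mir495 (0.92), Mir382 (0.80) and Mir154 (0.78) highest.

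Mir99a lies outside that region, on chromosome 16. It was at 4.93, 5.15 and 5.08 in Control and 5.66, 5.84 and 5.82 in TMZ (0.72 ± 0.11, adjusted p = 0.0425), with a clear gap between the groups. On the other arrays Mir99a was at 5.46 to 5.88 (Anti-PD-1) and 5.48 to 5.69 (Combination). Its neighbour Mirlet7c-1 was at 4.14, 4.09 and 3.67 against 4.47, 4.63 and 4.89 (0.69 ± 0.19, adjusted p = 0.215). Mirlet7c-2, which gives the same mature let-7c-5p from chromosome 15, was at 4.92, 4.73 and 4.87 against 5.72, 5.94 and 5.25 (0.80 ± 0.20, adjusted p = 0.178). Both let-7c genes separated the groups without passing. Mir219a-2, of a microRNA family known in oligodendrocytes, was at 5.81, 5.62 and 5.86 against 6.31, 6.60 and 6.34 (0.65 ± 0.11, adjusted p = 0.0566), and the sodium channel gene Scn9a was at 5.48, 5.56 and 5.74 against 6.06, 6.07 and 6.03 (0.46 ± 0.08, adjusted p = 0.0566).

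Whether TMZ went with the same differences in animals that also received the antibody was asked by Combination minus Anti-PD-1, which shares no array with TMZ minus Control. There limma called 0 of 22180 genes (0%), with 1089 at an unadjusted p under 0.05, and 0 in each of the 23 alternatives run. In each gene called for TMZ minus Control, every Anti-PD-1 array lay on the TMZ side of the Control arrays, as did every Combination array. Ccna2 was at 4.86, 4.84 and 4.83 in Anti-PD-1 and 5.17, 5.25 and 5.13 in Combination, all near the TMZ values, and Moxd1 at 5.70, 6.19 and 6.10 and at 6.31, 7.02 and 6.23. The kinesin and spindle genes averaged 4.25 to 4.34 in Anti-PD-1 and 4.29 to 4.40 in Combination. Of the 18 genes that fell after TMZ alone 15 were higher in Combination than in Anti-PD-1, with differences from -0.08 to 0.52 and a median of 0.15. No gene therefore passed as lower when TMZ was added to the antibody.

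The interferon genes differed in sign between the 2 comparisons. The 5 immunity-related GTPases had a median of -1.18 for TMZ minus Control and 1.42 for Combination minus Anti-PD-1, and the 9 guanylate-binding proteins had -0.58 and 1.02. With 1 Control or TMZ array left out the first median ranged from -0.68 (without TMZ replicate 2) and -0.78 (without Control replicate 2) to -1.60 (without Control replicate 3) for the GTPases. It ranged from -0.22 (without Control replicate 2) to -0.85 (without Control replicate 3) for the guanylate-binding proteins. The second median is given with all arrays only. The GTPases averaged 4.74, 5.35 and 6.22 on Anti-PD-1 replicates 1 to 3 and 6.56 to 7.16 on the Combination arrays. They averaged 6.42 to 8.18 in Control and 5.50 to 6.90 in TMZ. The second difference was thus taken against low Anti-PD-1 arrays, replicate 1 being the lowest of all. Igtp was higher in Combination by 1.89 and Irgm2, of the same family, by 1.36, without passing. Over the 125 cell cycle genes the medians were -0.39 and 0.02, and over the 43 microRNA genes 0.29 and -0.12. Across all 22180 genes the 2 sets of differences had a Pearson correlation of -0.21, a description over genes, which are not independent. The interaction, the difference between the 2 comparisons, was called for 1 gene (0.00451%), 3830403N18Rik, at 1.33 ± 0.13 (adjusted p = 0.0091). Its Anti-PD-1 arrays were at 2.67, 2.66 and 2.72 and its Combination arrays at 3.19, 3.02 and 2.95. The other 21 genes called in TMZ minus Control had an unadjusted interaction p under 0.05 and missed the adjusted threshold, and the interaction uses the contrast that chose them.

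**Figure D5:**
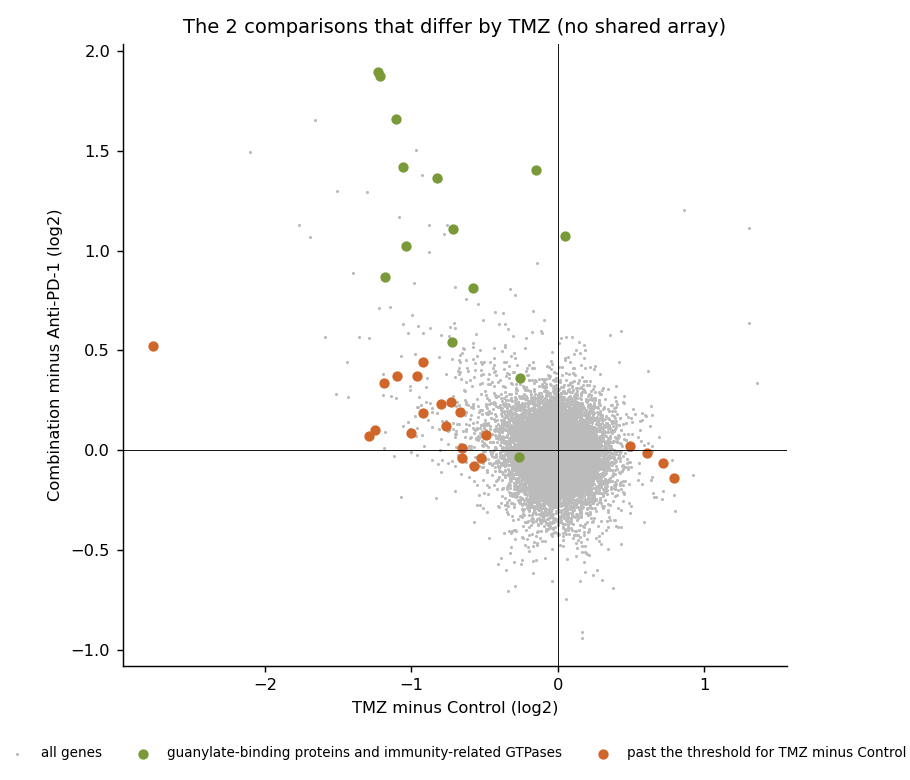
TMZ minus Control against Combination minus Anti-PD-1 (log2) for 22180 genes; orange points are the 22 genes called for TMZ minus Control and green points the guanylate-binding protein and immunity-related GTPase genes. The orange genes spread along the horizontal axis near 0 on the vertical one, and most green genes are to the left and above.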

How the data were processed

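Total RNA of GL261 tumour tissue was labelled and hybridised to 12 Affymetrix whole-transcript arrays. The deposited table holds 1 log2 value per probe set and array, made by the authors with RMA (background correction, quantile normalisation and median polish) in Affymetrix Expression Console, per the submitters' processing notes; the version and genome build are not given in the sources used here. Quantile normalisation gives all arrays 1 distribution, so a shift of all genes together would not show.

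Of 41345 probe sets 23521 had 1 gene symbol, 1814 had several and 16010 were not listed; 22180 genes remained. Array medians were 5.06 to 5.12, and the number of arrays limits the precision. No column belonged to an unlisted sample. All 12 arrays were fitted with 4 group means in limma 3.58.1 (R 4.3.3), with empirical Bayes variances and Benjamini-Hochberg adjustment over all genes at 0.05, on 8 residual degrees of freedom. SE is that of the fit. Every adjusted p in the text is from this fit. The code was tested on simulated data.

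Genes were named if called, if among the 10 nearest misses in each direction without overlap, if among the 5 largest differences, if among the 4 members of a list with the smallest p, or if fixed by name. The comparison and the lists were chosen with earlier results of these data known. The genes of the Meg3 to Dio3 region, the let-7c genes, the pituitary genes, Vwf, Slc4a1 and Tmem119 were singled out after their values were seen. Of 617 list entries 559 were measured. Alternatives tried were a variance trend, robust variances, averaged or all probe sets, dim genes left out, median centring, array weights, a replicate block, a neuron covariate, the compared groups only, and each array left out.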

Additional observations from a re-analysis of the deposited data

Results flagged for a closer look

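For 3830403N18Rik the difference that goes with TMZ was unequal without and with the antibody, by a test of the interaction. The call depended on the fit. It was lost without TMZ replicate 2, without Anti-PD-1 replicate 1 or 2, over all probe sets and with the neuron covariate. The gene was lower in TMZ than in Control by a log2 difference of -0.96 and higher in Combination than in Anti-PD-1 by 0.37, an interaction of 1.33 ± 0.13 (adjusted p = 0.0091, limma). Its Anti-PD-1 arrays, at 2.66 to 2.72, were as low as the TMZ arrays, at 2.74 to 2.96. Its signal lies in the lowest 10.5% of genes.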

How the results depend on the processing

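The 22 genes called for TMZ minus Control numbered 113 with a variance trend (21 of the 22 among them, 35 higher), 14 with robust variances, 1 over all probe sets, 38 with array weights, 2 with the neuron covariate and 0 with the compared groups only (2089 at an unadjusted p under 0.05). Leaving out 1 array gave 0 to 363 genes. Leaving out Control replicate 3 and TMZ replicate 2 together, chosen after seeing the data, gave 112. With the replicate number as a block the count was 4. Same-numbered deviations correlated at 0.1, -0.09 and 0.156, and TMZ replicate 1 correlated best with Control replicate 2 (0.201). The labels give only the number, and these correlations cannot show whether same-numbered arrays shared a batch. Averaged probe sets, dim genes left out and median centring gave 24, 18 and 22. Of the 18, 14 were among the 22. Dim genes were the lowest 30% by mean signal, which took out 3830403N18Rik and others of the 22, so that setting did not retest these. Combination minus Anti-PD-1 had 0 genes in every setting run. The interaction, 1 gene, had 12 with a variance trend, 0 over all probe sets and 0 with the neuron covariate. It had 0 to 198 without 1 array and 68 without both. With dim genes left out it had 0, but 3830403N18Rik was itself left out there, so this count could not retest it. For the 22 genes called, 0 of 498 alternative values reversed, 187 kept their side of the threshold and 311 lost it. Genes near 0 or set by 1 array changed sign. Without 1 array, or both, differences ranged from -0.0798 to 2.10 for Pomc, -0.20 to 2.03 for Prl, -0.77 to 1.75 for Gh, -0.0051 to 0.11 for Rbfox3, -0.0021 to 0.16 for AF357426, -0.0709 to 0.0175 for Msh6, -0.15 to 0.0466 for Chek1, -0.0335 to 0.11 for Ccng1, -0.12 to 0.0578 for E2f1 and -0.0663 to 0.0468 for Mbp. Ccng1 was at -0.0158 with the neuron covariate and Mbp at -0.0159 with array weights. The cause of these changes was not tested.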

Other observations

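Some gene groups are not described above. Of 12 immediate early genes 10 were lower, with a median of -0.23 (-0.15 without Control replicate 2), and Npas4, a factor switched on by neuronal activity, was at -0.79 without passing. Of 11 genes of the unfolded protein response 10 were lower by a median of -0.08, or between -0.0396 and -0.0459 without Control replicate 1 or TMZ replicate 2 or 3, with Trib3, a pseudokinase of that response, at -0.43. All 9 complement genes were lower, with a median of -0.47 that was -0.27 without TMZ replicate 2. In 1 of them (11.1%, against 6.81% of all genes) the arrays did not overlap, Cfb, factor B of the alternative pathway, at -0.63. Choroid plexus and ependymal markers were higher in 7 of 9, among them the cilia genes Dynlrb2 at 0.48 and Tmem212 at 0.31. None of the genes named here passed the threshold in limma.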
